A study of Homo sapiens with 6 samples.

Results

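The 10 genes described here make, bind and break down hyaluronan: the synthases HAS1, HAS2 and HAS3, the receptors CD44 and HMMR, the hyaluronidases HYAL1, HYAL2 and HYAL3, and the depolymerase genes CEMIP and CEMIP2. They are 10 of the 54628 gene symbols in the deposited count files, and 9 of them passed the filter on low counts. The set was chosen because HAS3 was higher in received cells in this same comparison, so the values of HAS3 are given as a description with no test, and the other members are read with that choice in mind. The samples are U87 cells, a long-established cell line from a human glioblastoma, which were separated from a co-culture by cell sorting. Astrocytes are named in the series title as the source of the mitochondria. There are 3 libraries of cycling U87 cells that had received mitochondria (received), and they are set against 3 libraries of cycling U87 cells that had not (not received). All 6 share the line, the co-culture and the sort, and the labels name no added agent. The labels do not say from which species the astrocytes came.

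Hyaluronan is a long, unbranched sugar polymer of the extracellular matrix and one of the main matrix components of the brain. Synthases in the plasma membrane build it from UDP-glucuronic acid and UDP-N-acetylglucosamine and push the growing chain out of the cell. CD44 is its principal cell-surface receptor, and hyaluronidases inside lysosomes and at the cell surface cut it into fragments. In glioblastoma the polymer and CD44 are known for their part in cell migration through brain tissue.

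Totals ran from 17879552 to 21314558 counts in the received libraries and from 18549585 to 46392491 counts in the not-received libraries. Not-received replicate 2, the deepest, stood apart on the first principal component of all genes tested, at 37.3, with not-received replicates 1 and 3 at 11.0 and 10.7. The labels leave it unsaid whether replicates came from separate cultures, so the p-values cover the spread among these samples, which may be technical. The line's label was checked. Vimentin (VIM), a filament protein of mesenchymal and glial cells, was 1 of 8 markers listed for the line. It averaged 4680.1 and 3918 TMM-scaled CPM (counts scaled to a common library size) in received and not-received cells. By edgeR 3 of the 8 were higher and 3 lower in received cells, beside 9.21% and 9.67% of all genes tested. VIM was among the higher (log2 fold change 0.26 ± 0.07 SE, edgeR adjusted p = 0.0170). CHI3L1 changed most of the 8 and was lower (-0.90 ± 0.10 SE, edgeR adjusted p = 3.75e-05). CDKN2A, CDKN2B and MTAP, a chromosome region that U87 is known to lack, had 0 counts in every library. Among 9 astrocyte markers, AQP4, ALDH1L1 and GJB6 had 0 counts, and the summed level was 15.1 to 17.0 CPM in received and 17.0 to 19.2 CPM in not-received libraries, nearly all of it from the glutamate transporter SLC1A3. Among 8 markers of microglia and other immune cells, AIF1, TYROBP, C1QA and CX3CR1 had 0 counts. PTPRC totalled 3 counts over the received libraries and 2 over the others, and ITGAM 2 and 17. The list summed to 493 to 508 CPM in received and 369.8 to 409.7 CPM in not-received libraries. Most of it came from CD68, a lysosomal protein that other cells also make, which was higher in received cells (log2 fold change 0.36 ± 0.06 SE, edgeR adjusted p = 0.000883). CSF1R, the other marker of this list tested, stood at 21.2 ± 1.19 CPM in received and 20.5 ± 0.653 CPM in not-received cells (SD, n = 3 each). It was not called (log2 fold change 0.04 ± 0.08 SE, edgeR adjusted p = 0.751). Summed markers stood at 9.26 to 12.3 and 13.8 to 14.3 CPM for neurons, at 0.334 to 0.512 and 0.326 to 0.767 CPM for oligodendrocytes, and at 1.50 to 2.09 and 1.68 to 2.07 CPM for endothelium, in received and not-received libraries. The neuron sum came almost wholly from SNAP25, which was lower in received cells (log2 fold change -0.49 ± 0.12 SE, edgeR adjusted p = 0.0101). SYT1, the other neuron marker tested, was not called (0.63 ± 0.35 SE, adjusted p = 0.218). In bulk RNA, fewer cells making a transcript and less RNA per cell cannot be told apart.

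Stretches of promoter are shown for HAS3, on which the set was chosen, and for HMMR and CD44, the receptor genes that went opposite ways. Each is the 250 bases before the RefSeq start on GRCh38.p14, 5′ to 3′ on the gene's strand, at chr16:69107290-69107539 for HAS3, chr5:163460382-163460631 for HMMR and chr11:35138921-35139170 for CD44, all on the plus strand. The annotation has several starts for each of these genes, and which of them the cells used is not recorded in gene counts. Capitals mark matches, on either strand, to the TATA box (TATAAA), the GC box (GGGCGG), the CCAAT box (CCAAT), the cell cycle element CHR (TTTGAA), AP-1 (TGANTCA) or the NF-kB consensus, and neighbouring matches may run together.
HAS3: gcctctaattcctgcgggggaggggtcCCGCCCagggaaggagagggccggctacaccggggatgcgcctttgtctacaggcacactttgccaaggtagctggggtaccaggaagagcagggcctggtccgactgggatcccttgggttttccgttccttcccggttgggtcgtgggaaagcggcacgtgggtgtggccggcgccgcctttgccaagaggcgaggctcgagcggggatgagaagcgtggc
HMMR: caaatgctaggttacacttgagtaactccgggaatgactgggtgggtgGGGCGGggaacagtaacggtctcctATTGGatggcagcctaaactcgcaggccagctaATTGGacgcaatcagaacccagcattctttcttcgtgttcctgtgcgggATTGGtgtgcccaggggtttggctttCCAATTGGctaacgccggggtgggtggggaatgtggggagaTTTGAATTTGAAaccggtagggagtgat
CD44: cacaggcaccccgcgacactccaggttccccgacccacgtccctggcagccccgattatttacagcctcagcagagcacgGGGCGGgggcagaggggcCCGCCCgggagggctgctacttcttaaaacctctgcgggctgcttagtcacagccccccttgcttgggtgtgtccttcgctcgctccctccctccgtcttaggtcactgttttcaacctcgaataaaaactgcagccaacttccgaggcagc

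The HAS3 window held 1 GC box and no other match of the 6 motifs searched. The CD44 window held 2 GC boxes, a number reached by 24.3% of the 35116 promoter windows of the same length. The HMMR window held 5 CCAAT boxes, of which 2 overlap on opposite strands, 2 CHR elements side by side and 1 GC box. At least 5 CCAAT boxes stood in 0.319% of all windows and at least 2 CHR elements in 1.72%. At least 1 match was found in 42.6% of windows for the GC box, 32.0% for the CCAAT box, 13.3% for CHR, 10.7% for the TATA box, 9.96% for the NF-kB consensus and 6.57% for AP-1. These matches are letters in a window and say nothing of which factors bind there.

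HAS3 and HAS2 mRNA stood higher in cells that had received mitochondria, while HAS1 did not pass the test. HAS3, which makes hyaluronan at the plasma membrane like its relatives, stood at 11.6, 11.0 and 9.73 CPM in the received libraries and at 3.20, 3.68 and 4.55 CPM in the not-received libraries. The groups did not overlap, and the lowest received library lay well above the highest not-received one. These CPM rest on 250, 205 and 175 counts in received and 59, 167 and 95 counts in not-received cells. The means were 10.8 ± 0.969 CPM in received and 3.81 ± 0.684 CPM in not-received cells (SD, n = 3 each), a ratio of 2.83 and a log2 fold change of 1.50 ± 0.16 SE. Over every alternative scaling, filter and method and with any 1 library left out, the log2 fold change of HAS3 lay between 1.41 and 1.63, and it was 1.47 without not-received replicate 2.

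HAS2, the synthase most studied in development and wound repair, stood at 19.3, 21.8 and 19.2 CPM in received and at 11.6, 11.3 and 12.7 CPM in not-received libraries. Again the groups did not overlap. HAS2 rose 1.69-fold (0.76 ± 0.10 SE on the log2 scale, adjusted p = 0.000172 by edgeR's quasi-likelihood test), and it stayed called with any 1 library left out (adjusted p up to 0.00318). HAS2-AS1, the antisense transcript that overlaps HAS2 and is known as a regulator of it, was low in both groups, at 0.945 ± 0.256 CPM in received and 1.08 ± 0.153 CPM in not-received cells, and was not called (log2 fold change -0.22 ± 0.31 SE, edgeR adjusted p = 0.658). The labels do not say whether the counting used strand, so reads of HAS2 and HAS2-AS1 may be mixed, although the antisense counts were few.

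HAS1, the third synthase, stood at 7.82, 7.08 and 6.45 CPM in received and at 7.22, 4.05 and 4.65 CPM in not-received libraries. Its groups overlapped through not-received replicate 1 and it was not called (log2 fold change 0.45 ± 0.20 SE, edgeR adjusted p = 0.143). Without not-received replicate 1 it was called (log2 fold change 0.72, edgeR adjusted p = 0.0149), and without not-received replicate 2 the log2 fold change was 0.27 (adjusted p = 0.313). Leaving HAS3 aside, HAS1 made up 28.9%, 24.5% and 25.2% of the HAS1 and HAS2 CPM in received libraries and 38.4%, 26.4% and 26.7% in not-received libraries, which overlap (exact two-sided permutation p = 0.5, where 3 against 3 cannot go under 0.1).

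Taken as a sum over the synthases, CPM came to 38.7, 39.9 and 35.4 in received and 22.0, 19.0 and 22.0 in not-received libraries. HAS2 was the largest part of that sum in every library. Its share averaged 52.9% ± 2.71 in received and 56.7% ± 3.60 in not-received cells (SD, n = 3 each). HAS3 averaged 28.4% ± 1.44 of the sum in received cells and 18.2% ± 3.23 in not-received cells, and HAS1 18.7% ± 1.29 and 25.1% ± 6.70. HAS3, which chose the set, is part of these sums and shares, so they are given with no test.

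**Figure D1:**
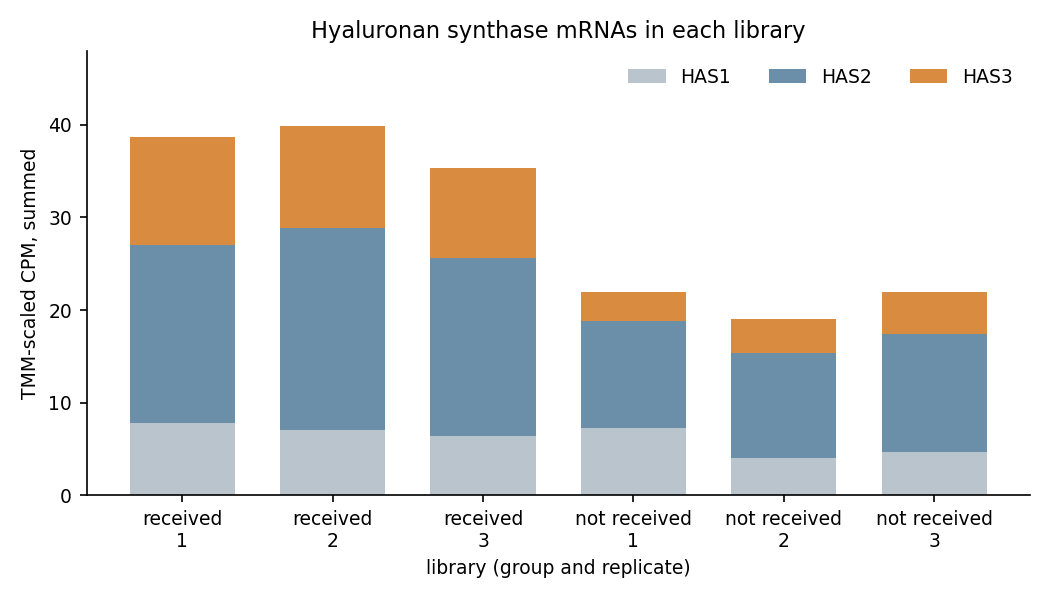
Stacked bars of TMM-scaled CPM of HAS1, HAS2 and HAS3 in each of the 6 libraries, received libraries on the left and not-received libraries on the right. The received bars reach 35.4 to 39.9 CPM and the not-received bars 19.0 to 22.0 CPM, with HAS2 the largest segment in each.

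The receptor genes were called in opposite directions, HMMR higher and CD44 lower in received cells. CD44 stood at 869, 873 and 870.0 CPM in received and at 979, 1019 and 1060.0 CPM in not-received libraries, with no overlap. It fell by 0.23 ± 0.05 SE on the log2 scale (edgeR adjusted p = 0.0112). That call depended on all the received libraries: without received replicate 1, 2 or 3 the adjusted p was 0.0714, 0.0585 or 0.0635, with the log2 fold change at -0.22 each time. Gene counts add up all CD44 isoforms, so nothing is known here of its splice variants.

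HMMR, also called RHAMM, binds hyaluronan at the cell surface and binds the mitotic spindle inside dividing cells. It stood at 121, 122 and 112 CPM in received and at 95.2, 102 and 99.5 CPM in not-received libraries, again with no overlap. HMMR rose 1.20-fold (log2 fold change 0.26 ± 0.06 SE, edgeR adjusted p = 0.00991), and it was not called without received replicate 1 or 2 (adjusted p = 0.0599 and 0.0601). The proliferation marker MKI67 stood at 574, 595 and 613 CPM in received and at 613, 844 and 635 CPM in not-received libraries (log2 fold change -0.23 ± 0.12 SE, edgeR adjusted p = 0.213). Its log2 fold change was -0.07 without not-received replicate 2 (adjusted p = 0.312) and -0.32 without not-received replicate 1 (adjusted p = 0.0886), and with edgeR and no filter on low counts MKI67 was called lower (adjusted p = 0.00682). Of 5 genes for partners of HMMR in mitosis, 0 rose by edgeR (0 at an unadjusted p under 0.05 and 0 by DESeq2) and 1 fell (2 at an unadjusted p under 0.05), where 9.21% of all genes tested were called higher and 9.67% lower. The gene that fell was the dynein light chain DYNLL1 (log2 fold change -0.30 ± 0.06 SE, edgeR adjusted p = 0.0043). TPX2, the spindle assembly factor that binds HMMR, was at 610.0 ± 8.91 CPM in received and 609.6 ± 32.0 CPM in not-received cells (SD, n = 3 each). The list's median log2 fold change was -0.13, where the median of all genes tested was -0.0012.

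**Figure D2:**
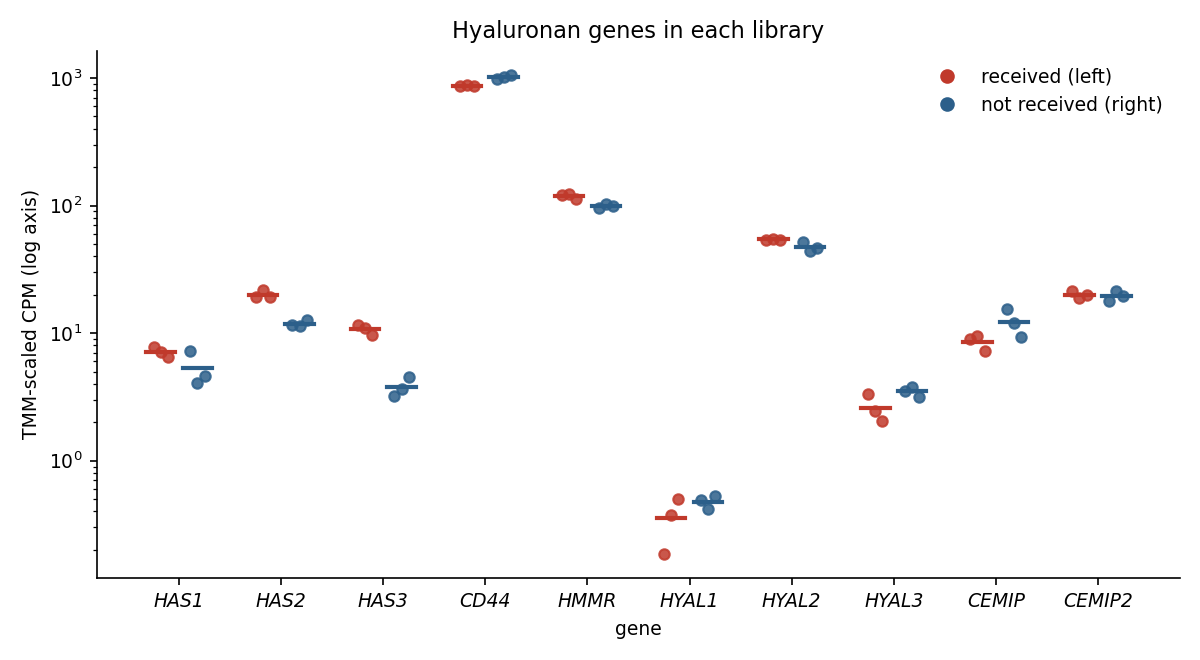
TMM-scaled CPM on a log axis for the 10 hyaluronan genes, 1 point per library with received libraries in red on the left of each pair and not-received libraries in blue on the right; short lines are group means. The points of HAS2, HAS3, HMMR and HYAL2 in received libraries lie above all not-received points, those of CD44 lie below, and HYAL1 is under 1 CPM throughout.

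Of the 4 tested members of the set that cut hyaluronan or serve its breakdown, 0 passed the test by edgeR, DESeq2 or limma-voom. At an unadjusted p under 0.05 by edgeR 1 of these members was higher (HYAL2) and 1 lower (CEMIP). Of all 14100 genes tested, 18.9% were called in either direction. HYAL2, a hyaluronidase anchored at the cell surface, stood at 54.0, 54.9 and 54.0 CPM in received and at 51.6, 43.7 and 46.7 CPM in not-received libraries. The received libraries all lay higher, but the log2 fold change of 0.20 ± 0.07 SE was not called (edgeR adjusted p = 0.0754). It was called with scaling by library size alone (edgeR adjusted p = 0.0428) and without not-received replicate 1 (adjusted p = 0.0270).

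HYAL1, the lysosomal hyaluronidase, had 4, 7 and 9 counts in received and 9, 19 and 11 counts in not-received libraries, too few for the test. HYAL3, whose activity on hyaluronan is disputed, stood at 3.30, 2.47 and 2.06 CPM in received and at 3.53, 3.77 and 3.16 CPM in not-received libraries. Its groups overlapped (log2 fold change -0.42 ± 0.22 SE, edgeR adjusted p = 0.202). HYAL3 also overlaps NAA80, a gene for an actin acetyltransferase, and the reads of overlapping genes may have been shared out or dropped. NAA80 went the other way, at 8.52 CPM in received and 5.67 CPM in not-received cells (log2 fold change 0.59 ± 0.14 SE, edgeR adjusted p = 0.00889). What part of the HYAL3 values this overlap makes up was not tested.

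CEMIP, a secreted or membrane-bound protein needed for hyaluronan breakdown in skin fibroblasts, stood at 8.93, 9.55 and 7.23 CPM in received and at 15.4, 11.9 and 9.30 CPM in not-received libraries. The groups overlapped and the not-received libraries were spread widely. It was not called (log2 fold change -0.51 ± 0.18 SE, edgeR adjusted p = 0.0689), but it was called lower without not-received replicate 3 (log2 fold change -0.66, adjusted p = 0.0140) and, with edgeR, with no filter on low counts (adjusted p = 0.00243). Without not-received replicate 1 the log2 fold change of CEMIP was -0.32 (edgeR adjusted p = 0.176). CEMIP2, its transmembrane relative also known as TMEM2, stood at 21.2, 18.9 and 19.8 CPM in received and at 17.9, 21.3 and 19.5 CPM in not-received libraries, with a log2 fold change of 0.02 ± 0.09 SE (edgeR adjusted p = 0.879).

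**Figure D3:**
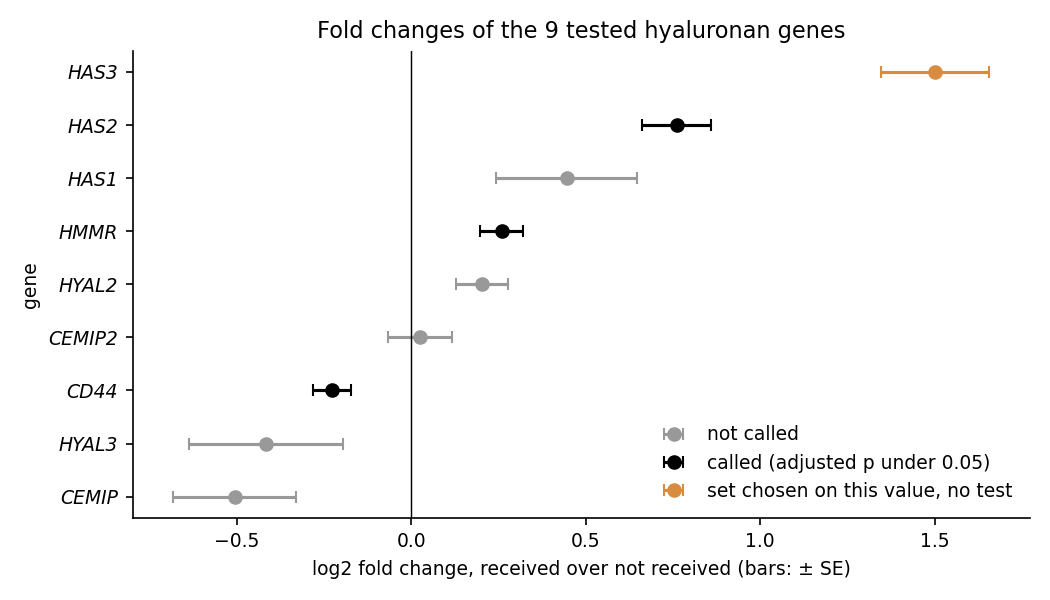
Log2 fold changes of received over not-received cells for the 9 tested hyaluronan genes, with bars of ± 1 SE from edgeR's quasi-likelihood fit; black points were called at an adjusted p under 0.05, grey points were not, and HAS3 is orange because the set was chosen on it. HAS3 and HAS2 lie farthest right at 1.50 and 0.76, and CEMIP farthest left at -0.51.

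With HAS3 counted in, 3 of the 9 tested members were higher at an adjusted p under 0.05 and 1 was lower, where 9.21% of all 14100 genes tested were called higher and 9.67% lower. Groups did not overlap in 5 of the 9, where that held for 39.0% of all genes tested. Since the set was chosen in this comparison, nothing is read from these counts. The median log2 fold change of the 9 was 0.20, and that of all genes tested -0.0012. Without received replicate 1 or 2 the calls were 2 higher and 0 lower, without received replicate 3 they were 3 and 0, and without not-received replicate 1 they were 5 and 1.

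Levels of different genes were compared per kilobase of exon, with lengths from GENCODE 29, an annotation that may differ from the one used for counting. In received cells the order was CD44 (143 CPM per kb), HMMR (36.0), HYAL2 (13.0), HAS2 (4.79), HAS1 (3.21), CEMIP2 (3.00), HAS3 (2.21), HYAL3 (1.32), CEMIP (1.16) and HYAL1 (0.114). HAS1 and CEMIP2 overlapped across the received libraries, as did HYAL3 and CEMIP, and the other neighbours in the order did not. In not-received cells CD44 (167 CPM per kb), HMMR (30.1) and HYAL2 (11.3) again led, followed by CEMIP2 (2.94), HAS2 (2.83), HAS1 (2.40), HYAL3 (1.76), CEMIP (1.65), HAS3 (0.783) and HYAL1 (0.154). There CEMIP2, HAS2 and HAS1 overlapped, HAS1 reached down to HYAL3, and HYAL3 overlapped with CEMIP. HAS3 thus stood 7th per kilobase in received cells and 9th in not-received cells, under CD44 in both by a wide margin.

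Some members overlap other genes in the RefSeq annotation, which bears on how their reads were counted. The HAS3 span overlaps TANGO6, a gene for a Golgi transport protein, whose level was 29.4 CPM in received and 21.9 CPM in not-received cells (log2 fold change 0.42 ± 0.09 SE, edgeR adjusted p = 0.00822). It also overlaps CHTF8 and DERPC, both listed with 0 counts in every library. HAS1 overlaps SPACA6, which was lower in received cells (log2 fold change -0.37 ± 0.11 SE, edgeR adjusted p = 0.0340), and CEMIP overlaps MESD (-0.24 ± 0.05, adjusted p = 0.00792). The part of overlapping reads in the members' values was not tested. These neighbours were named for their position.

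The wider pathway was described with a list of 78 further genes for precursor synthesis, binding, breakdown and known inducers, of which 52 passed the filter on low counts and 14 had 0 counts in every library. By edgeR 15 of the 52 were higher and 6 lower in received cells, beside 9.21% and 9.67% of all genes tested. The 15 include TNFAIP6, which passed the filter with the help of the libraries where it was high. The median log2 fold change of the 52 was -0.0033, and that of all genes tested -0.0012. The list was drawn up with earlier results of these data known, and its inducer genes include some already seen to rise.

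Of 10 tested genes for the sugar precursors, 3 rose and 0 fell by edgeR, beside 9.21% and 9.67% of all genes tested. The 3 were GFPT2, GNPNAT1 and PGM3. At an unadjusted p under 0.05, UAP1 and the hexokinase gene HK2 were lower, and DESeq2 called HK2 lower. GFPT2, a form of the enzyme that opens that path, stood at 358, 374 and 376 CPM in received and at 215, 235 and 229 CPM in not-received libraries, with a wide gap between the groups (log2 fold change 0.71 ± 0.06 SE, edgeR adjusted p = 3.44e-06). The next enzymes GNPNAT1 (0.22 ± 0.06 SE) and PGM3 (0.28 ± 0.08 SE) rose slightly, with edgeR adjusted p of 0.0203 and 0.0283. GNPNAT1 was not called without any 1 received library (adjusted p up to 0.0887), nor was PGM3 without any 1 received library or without not-received replicate 1 or 2 (adjusted p up to 0.112). UAP1, the last enzyme of the same path, had a log2 fold change of -0.15 ± 0.06 SE (edgeR adjusted p = 0.0812), with every received library under every not-received one, and GFPT1, the relative of GFPT2, one of 0.05 ± 0.06 SE (adjusted p = 0.583). UGDH, which makes UDP-glucuronic acid, stood at 62.5 ± 4.11 CPM in received and 67.2 ± 1.90 CPM in not-received cells (SD, n = 3 each; log2 fold change -0.10 ± 0.07 SE, edgeR adjusted p = 0.318).

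Most genes for matrix proteins that bind hyaluronan had too few counts for the test. Of 20 genes 7 were tested, and by edgeR 4 of them rose and 0 fell, beside 9.21% and 9.67% of all genes tested. The 4 include TNFAIP6, which passed the filter on low counts with the help of the received libraries, so nothing is read from this count. At an unadjusted p under 0.05 by edgeR 1 was lower, and 0 were called lower by DESeq2 or limma-voom. The median log2 fold change of the 7 was 0.30, and 8 further genes had 0 counts. VCAN, the proteoglycan versican, stood at 308, 325 and 309 CPM in received and at 216, 283 and 238 CPM in not-received libraries (log2 fold change 0.35 ± 0.09 SE, edgeR adjusted p = 0.0160). VCAN was not called without received replicate 2 or 3 or not-received replicate 3 (adjusted p up to 0.0774). PTX3, a pentraxin of the hyaluronan-rich matrix around the egg, rose by the same amount (0.35 ± 0.07 SE, adjusted p = 0.00512), and so nearly did C1QBP (0.30 ± 0.06 SE, adjusted p = 0.00212), a mostly mitochondrial protein also known as a hyaluronan-binding protein.

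TNFAIP6, or TSG-6, which moves protein chains onto hyaluronan, had the largest change of these matrix genes and was named after its value was seen. It had 43, 46 and 34 counts in received and 7, 28 and 13 counts in not-received libraries, or 2.00, 2.47 and 1.89 CPM against 0.380, 0.617 and 0.623 CPM. The received libraries all lay higher (log2 fold change 1.93 ± 0.30 SE). With any 1 library left out, the log2 fold change of TNFAIP6 lay between 1.77 and 2.05. TNFAIP6 passed the filter on low counts with the help of the received libraries, where it was high. Its values are therefore given as a description with no test. The chains it moves come from inter-alpha-inhibitor, whose heavy chain genes ITIH1 to ITIH5 had 0 to 6 counts in all in each group.

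Other receptors and CD44's partners gave single changes. LAYN, the hyaluronan receptor layilin, stood at 48.4, 49.8 and 49.7 CPM in received and at 57.7, 60.8 and 61.2 CPM in not-received libraries. It fell (log2 fold change -0.28 ± 0.07 SE, edgeR adjusted p = 0.00907) and was not called without received replicate 1 (adjusted p = 0.0648). The receptor genes LYVE1, STAB1, STAB2, TLR2 and SUSD5 had too few counts for the test, TLR4 had none, and ICAM1 was not called. ICAM1 summed to only 45 counts over the received libraries and 58 over the others, and whether reads of genes that overlap it were dropped in counting was not tested.

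Among 9 tested genes for the linkage and shedding of CD44, 2 rose and 1 fell by edgeR, beside 9.21% and 9.67% of all genes tested. EZR, which encodes ezrin and ties CD44 to actin, fell to 149.6 ± 5.25 CPM in received cells, against 188 ± 9.63 CPM in not-received cells (SD, n = 3 each; log2 fold change -0.33 ± 0.06 SE, edgeR adjusted p = 0.00196). Its relative MSN, moesin, was at 850.5 ± 16.1 CPM in received and 847 ± 99.6 CPM in not-received cells and was not called. ADAM17, a sheddase, and ANK3, an ankyrin, rose by log2 fold changes of 0.31 ± 0.08 SE and 0.54 ± 0.16 SE (edgeR adjusted p = 0.0169 and 0.0309). Neither was called without received replicate 1 or 2, nor ANK3 without not-received replicate 1 (adjusted p up to 0.160).

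By edgeR 9.21% of all genes tested were called higher and 9.67% lower. In the breakdown list 0 of 5 tested genes rose by edgeR (0 at an unadjusted p under 0.05 and 0 by DESeq2) and 3 fell. Among those that fell were genes of lysosomal enzymes that finish the digestion of hyaluronan fragments: HEXA (log2 fold change -0.23 ± 0.07 SE, edgeR adjusted p = 0.0274) and GUSB (-0.22 ± 0.06 SE, adjusted p = 0.0283). HEXA stood at 66.2, 68.5 and 63.0 CPM in received and at 81.1, 76.3 and 74.2 CPM in not-received libraries, with no overlap. Neither HEXA nor GUSB was called when any 1 received library was left out (edgeR adjusted p = 0.0705 to 0.141), nor HEXA without not-received replicate 1 (adjusted p = 0.0742), and with scaling by library size alone neither was called (adjusted p = 0.0618 for HEXA and 0.0580 for GUSB). HYAL4 and SPAM1, further genes of the hyaluronidase family, and the pseudogene HYAL6P had 0 counts.

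Genes of the inducer list, known to raise hyaluronan synthesis or to report NF-kB activity, split 6 higher and 0 lower of 9 tested by edgeR. Of all genes tested 9.21% were called higher and 9.67% lower. Some inducers were already seen to rise in these data when the list was drawn up, so nothing is read from this count. EGFR was lower at an unadjusted p under 0.05 by edgeR (log2 fold change -0.22 ± 0.08 SE) but was not called, and DESeq2 called 0 lower. NFKB1 and TGFB1 were not called (log2 fold change -0.06 each), and TNF and AREG had 0 counts. IL1B, the cytokine interleukin-1 beta, stood at 173, 159 and 151 CPM in received and at 15.6, 21.6 and 27.1 CPM in not-received libraries, far apart (log2 fold change 2.90 ± 0.19 SE, edgeR adjusted p = 0.000408). IL1A, its relative, rose by a log2 fold change of 1.39 ± 0.18 SE, RELB, an NF-kB subunit, by 0.62 ± 0.08 SE, and HBEGF, a growth factor of the EGF family, by 0.50 ± 0.08 SE (edgeR adjusted p = 0.00016, 0.000106 and 0.000548). Of the 5 genes of synthase control, which hold the AMP-activated kinase subunits and the O-GlcNAc enzymes besides HAS2-AS1, 0 rose and 0 fell by edgeR (0 at an unadjusted p under 0.05 and 0 by DESeq2); the smallest p was that of PRKAA1 (log2 fold change 0.08 ± 0.06 SE, edgeR adjusted p = 0.400).

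**Figure D4:**
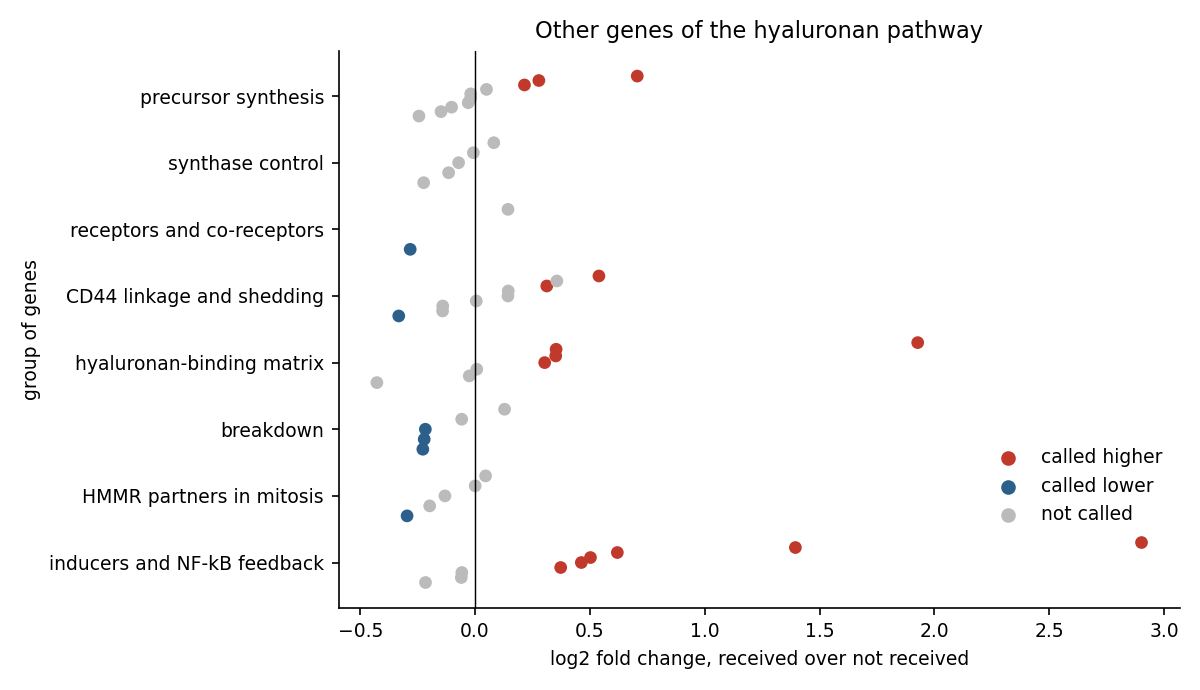
Log2 fold changes of received over not-received cells for the 52 tested genes of the wider pathway list, 1 point per gene, in rows by group; red points were called higher, blue points lower and grey points were not called. Red and blue points number 3 and 0 of 10 for precursors, 2 and 1 of 9 for CD44 linkage and 4 and 0 of 7 for matrix. They number 6 and 0 of 9 for inducers, 0 and 3 of 5 for breakdown and 0 and 0 of 5 for synthase control. For receptors they number 0 and 1 of 2, and for HMMR partners 0 and 1 of 5. Of all genes tested, 9.21% were called higher and 9.67% lower. Some inducers were already seen to rise when the list was drawn up.

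The profile of HAS3 over the 6 libraries was set beside that of the 11536 other tested genes whose log2 CPM averaged at least 1. The highest Pearson correlations of log2 CPM were those of FAM234A, RMDN1, TMEM156, BPNT2 and TCIM (r = 0.997 to 0.999), and the lowest those of FZD1, HCN2, EMILIN2, LRRC45 and PLEKHG4 (r = -0.998 to -0.997). Among the members the correlations were 0.98 for HAS2, 0.96 for HMMR, 0.75 for HYAL2, 0.58 for HAS1, 0.26 for CEMIP2, -0.68 for HYAL3, -0.78 for CEMIP and -0.88 for CD44. The libraries fall into the received and not-received groups, so a correlation over all 6 mostly restates the gap between them, and it is given as a description only. FAM234A, the nearest, had a log2 fold change of 0.11 ± 0.06 SE, small beside that of HAS3.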

How the data were processed

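The authors deposited raw read counts per gene symbol, 1 file per library, as whole numbers with no normalization. Per the labels' protocols, polyadenylated RNA was copied from random primers and read in pairs on an Illumina instrument. DESeq and R 3.6.1 appear in the submitters' processing notes; no source used here gives the aligner, counter, build, annotation or strand setting, so no coordinates come from the files. The title of each sample gives its group.

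Genes were kept with filterByExpr (14100 of 28833 with a count), scaled by TMM and tested with glmQLFit (robust) and glmQLFTest of edgeR 4.0.16 in R 4.3.3 for the contrast of received against not-received cells, with Benjamini-Hochberg adjustment over all genes tested. An adjusted p under 0.05 is a call. SE stands for the size of the log2 fold change over the square root of F. A count of 3 equals 0.0661 to 0.167 CPM, a floor for counting error alone, since the reads carry no molecular identifiers. Every pair of replicates differed beyond sampling noise (chi-square 3.42 to 22.2 per gene). On simulated data for this comparison (13905 genes), 65 of 100 genes with 1.5-fold and 79 of 100 with 2-fold changes were found, and 7 of 151 calls were false. The simulation changed only these genes, as many up as down, and made no library stand apart as not-received replicate 2 did. In the real data 18.9% of genes tested were called, so these rates may not carry over. Promoters come from a table made from RefSeq (GRCh38.p14), in which 9 of the 10 members were matched, and exon lengths from GENCODE 29. Alternatives were RLE factors, library size alone, DESeq2 1.42.0, limma-voom (limma 3.58.1), other low-count filters, the replicate number as a block and leaving out each library.

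The members and lists were chosen with earlier results of these data known. Named were all members; per group of the wider list, up to 4 called genes by absolute fold change whose log2 CPM averaged at least 1, or else the smallest p; the 5 nearest and 5 most opposite profiles to HAS3; IL1B and MKI67. Other genes are named as members of a group, for their position, or after their values were seen. The values of 1 called gene of the breakdown group are not reported here.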

Additional observations from a re-analysis of the deposited data

How the results depend on the processing

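HAS3 and HAS2 kept their direction under every alternative, HAS2 its call too. Over all members and alternatives no called value changed sign, 106 values kept their side of the threshold (for HAS3, stayed within the spread of replicates), 5 calls were lost (CD44 and HMMR, each with a received library left out) and 6 were gained (HAS1, HYAL2 and CEMIP). With 1 library left out, the count of members called, HAS3 counted in, ran from 2 to 5 higher and from 0 to 2 lower. That of all genes ran from 604 to 1356 higher and from 691 to 1579 lower. In either direction, 8.89% to 20.5% of the genes tested were called. That of the wider list, TNFAIP6 counted in, ran from 10 to 15 higher and from 3 to 8 lower. The lowest counts came with 1 received library left out. Since HAS3 chose the set, nothing is read from the member counts. Without a filter on low counts 2084 genes and 2 members were called lower, CEMIP being the member added. With the replicate number as a block, again 2 members were called lower and CEMIP was the one added (edgeR adjusted p = 0.0168). Same-numbered libraries did not deviate together (correlations of -0.19, -0.04 and 0.04). With so few libraries these values cannot show whether such libraries shared a culture or batch. Scaling by library size alone moved the median of all genes by 0.037 on the log2 scale and split the calls into 1683 higher and 1110 lower genes, against 1298 and 1364. The cause of these shifts was not tested. Depth limits HYAL1, which had too few counts for the test, and other genes of low count such as HAS2-AS1 and ICAM1.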
